A study of Mus musculus with 8 samples.

Results

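The 10 genes described here set what cells do with glucose, pyruvate and lactate: the pyruvate dehydrogenase kinases Pdk1, Pdk2, Pdk3 and Pdk4, the lactate dehydrogenase subunits Ldha and Ldhb, the monocarboxylate carriers Slc16a1, Slc16a3 and Slc16a7, and the glucose transporter Slc2a1. They were taken by gene symbol. All 10 are among the 24060 rows of the count table, and all 10 were among the 15186 genes that passed a filter on low counts and were tested. RNA of whole cerebellum, a bulk tissue, was sequenced from 8 mice. The 4 bigenic mice carried CalExflox, an allele that yields a calcium-exporting pump once Cre has recombined it, together with Aldh1l1-Cre/ERT2, a Cre that tamoxifen activates and that the astrocyte promoter Aldh1l1 drives. The 4 control mice carried CalExflox without Cre. Both groups received tamoxifen once at 75 mg/kg, and the cerebellum was collected 5 days after that. Neither age nor sex is in the labels. Since Cre is present in the bigenic mice alone, effects of Cre and of the pump cannot be told apart, and no row of the table names the construct.

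Pyruvate, the end product of glycolysis, either enters mitochondria and is oxidised by the pyruvate dehydrogenase complex or is reduced to lactate. The pyruvate dehydrogenase kinases phosphorylate the complex and switch it off, so that more kinase favours lactate and the use of other fuels. In brain, glucose crosses the vessel wall through the Slc2a1 product GLUT1, astrocytes are regarded as net makers of lactate, and lactate passes between cells through the monocarboxylate carriers. Lactate dehydrogenase is a tetramer of subunits from Ldha, usually linked to lactate production, and Ldhb, usually linked to lactate use.

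Counted reads ranged from 35208460 to 38293012 per library. Transcripts of the choroid plexus, a secretory epithelium that adjoins the cerebellum, were abundant in part of the control libraries. Its marker Ttr, transthyretin, was measured at 4.62, 2.43, 2.75 and 2.25 CPM in bigenic libraries 1 to 4, against 300.2, 2360, 2961 and 2.77 CPM in control libraries 1 to 4. CPM here are counts scaled to library size after TMM normalisation. Control library 4 was thus at the bigenic level for this marker, and results are also given without control libraries 2 and 3 where that ends a call or moves a count by over 1.5 times. That setting keeps control library 1, so choroid plexus transcripts remain among the controls. Summed over 10 choroid plexus markers, control libraries 1 and 4 were at 665.3 and 295 CPM, above the bigenic range of 163.5 to 232.1 CPM. A call kept in that setting is therefore not cleared of choroid plexus content. In bulk tissue, fewer cells of a type and less RNA per cell cannot be told apart.

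Of the 10 genes, 3 rose in bigenic cerebellum (Pdk2, Pdk4 and Slc2a1), 3 fell (Ldha, Slc16a3 and Slc16a7) and 4 did not pass the test (Pdk1, Pdk3, Ldhb and Slc16a1). The threshold was an adjusted p of 0.05 in edgeR's quasi-likelihood test. Across all genes tested 44.3% were called, 21.4% as higher and 22.9% as lower, so 6 calls among 10 genes is not far from the share among genes at large. These shares are also the background for the counts of called genes in every list below. For 7 of the 10 genes every bigenic library lay on the same side of every control, against 40.7% of all genes tested. The median log2 fold change of the 10 was -0.01, and that of all genes tested was -0.0041. Without control libraries 2 and 3, 2 of the 10 were higher and 2 lower, with 21.9% of all genes called. With the level of Ttr as a covariate 2 were higher and 3 lower, with 19.3% of all genes called.

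**Figure D1:**
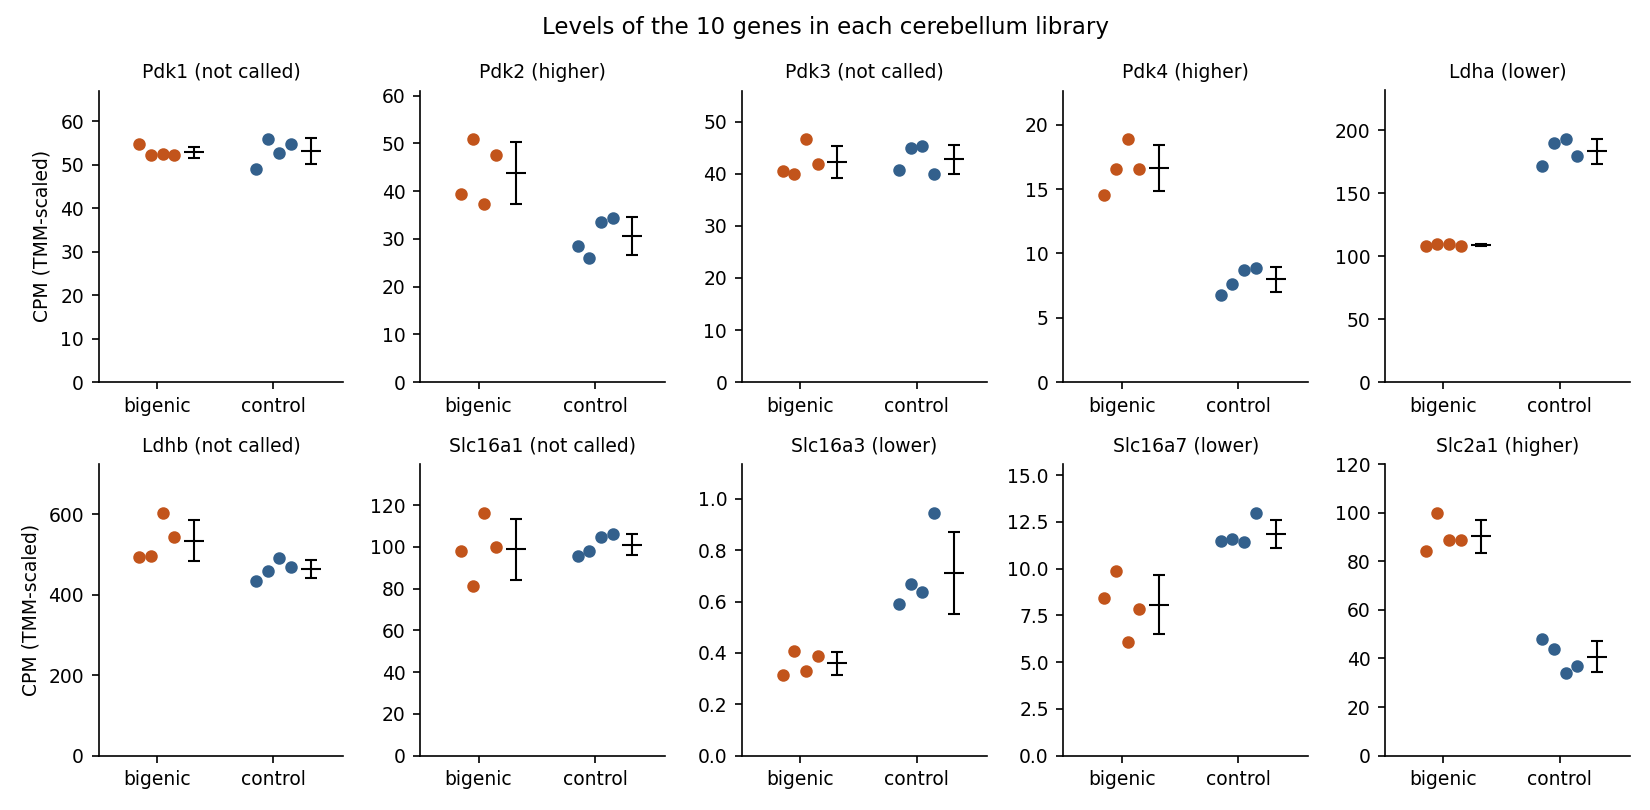
CPM of each of the 10 genes in the 4 bigenic libraries (left in each panel) and the 4 control libraries (right), drawn in order of mouse number; bars give mean ± SD (n = 4), each y axis starts at 0, and the call by edgeR stands in each panel title. The bigenic and control points are apart for 7 genes and mixed for Pdk1, Pdk3 and Slc16a1.

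On a per-length scale the lactate dehydrogenases led the list. In deposited FPKM, which are counted reads scaled by gene length and library total, Ldhb averaged 402 ± 34.0 in bigenic and 370.2 ± 17.3 in control libraries (SD, n = 4 each). Ldha followed at 54.7 ± 0.474 FPKM in bigenic and 97.8 ± 4.63 FPKM in control libraries. In bigenic tissue Slc2a1 came next at 34.1 ± 2.50 FPKM, above Slc16a1 at 21.6 ± 2.97, Pdk3 at 20.5 ± 1.21 and Pdk2 at 18.8 ± 2.88 FPKM. In control tissue the order differed, with Slc16a1 at 23.5 ± 1.31 and Pdk3 at 22.0 ± 1.19 above Slc2a1 at 16.3 ± 2.58 and Pdk2 at 13.9 ± 1.87 FPKM. Slc16a1, Pdk3 and Pdk2 in bigenic tissue, Slc16a1 and Pdk3 in control tissue, and Slc2a1 and Pdk2 in control tissue lay within each other's spread. The lowest levels were those of Pdk1 (9.89 ± 0.345 FPKM in bigenic and 10.5 ± 0.652 in control libraries), Pdk4 (4.67 ± 0.427 FPKM in bigenic and 2.38 ± 0.296 in control libraries), Slc16a7 (3.24 ± 0.658 FPKM in bigenic and 5.06 ± 0.388 in control libraries) and Slc16a3 (0.135 ± 0.0174 FPKM in bigenic and 0.284 ± 0.0682 in control libraries).

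Among the kinases, Pdk4 changed most. Pdk4 is the isoform known from muscle, heart and liver to be induced by fasting, glucocorticoids and fatty acids, and it lies on chromosome 6 from 5483351 to 5496309 on the minus strand (GRCm38). It was measured at 14.6, 16.5, 18.9 and 16.5 CPM in bigenic libraries 1 to 4, against 6.80, 7.61, 8.68 and 8.87 CPM in control libraries 1 to 4. Every bigenic library lay above every control, and control library 4, which held little Ttr, was the highest control. The log2 fold change was 1.06 ± 0.12 (SE; n = 4 per group; edgeR adjusted p = 7.88e-05), a 2.08-fold rise, larger in size than 92.8% of all genes tested. The call was kept in all 19 processing alternatives, with values between 0.75 and 1.12.

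Pdk4 transcription is known to answer to several regulators, and its promoter window is shown. The window runs from 250 bases before to 50 after the RefSeq start, so sites further upstream were not searched. It is given 5′ to 3′ on the gene's strand (chr6:5496229-5496528, minus strand, GRCm38.p6). Capitals mark matches to any of 5 short motifs searched on both strands: AGAACA (an arm of the glucocorticoid receptor element), GTAAACA (FoxO factors), AAGGTCA (estrogen-related receptors), and ACGTG and GCGTG (cores bound by hypoxia-inducible factors).
Pdk4: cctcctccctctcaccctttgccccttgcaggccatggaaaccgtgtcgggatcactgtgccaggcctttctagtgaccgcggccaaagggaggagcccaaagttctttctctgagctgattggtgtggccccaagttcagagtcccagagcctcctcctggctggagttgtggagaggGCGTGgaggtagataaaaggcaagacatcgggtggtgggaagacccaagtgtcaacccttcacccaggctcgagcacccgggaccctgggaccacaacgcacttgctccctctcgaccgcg
The window holds 1 match, to GCGTG, a motif found in 32.4% of the 32851 promoter windows of this length in the RefSeq table. ACGTG occurs in 19.6% of them, AGAACA in 19.0%, AAGGTCA in 4.72% and GTAAACA in 3.65%. These are matches of letters in a short window and say nothing of binding.

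Pdk2, the kinase most widely expressed across tissues, also rose, by less. It was measured at 39.4, 50.9, 37.4 and 47.5 CPM in bigenic libraries 1 to 4, against 28.5, 26.1, 33.6 and 34.4 CPM in control libraries 1 to 4. The groups did not overlap, but the lowest bigenic and the highest control library were close, and the log2 fold change was 0.52 ± 0.12 (SE; n = 4 per group; edgeR adjusted p = 0.00558). Without control libraries 2 and 3 it was 0.47 (adjusted p = 0.0543), in a fit with fewer samples. With the Ttr covariate it was 0.37 (adjusted p = 0.188), but Ttr was high in control libraries alone, so that covariate overlaps with the group difference. The call of Pdk2 was lost in both fits, and neither can tell whether choroid plexus content is the reason.

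Pdk1 and Pdk3 did not pass. Pdk1, a kinase known as a target of hypoxia-inducible factor, was measured at 54.8, 52.1, 52.3 and 52.2 CPM in bigenic libraries and at 49.0, 55.8, 52.7 and 54.8 CPM in control libraries. The bigenic values all lay inside the control range, and the 95% interval of the log2 fold change ran from -0.16 to 0.15 (edgeR adjusted p = 0.939). Pdk3, an X-linked isoform, was measured at 40.5, 39.9, 46.6 and 41.9 CPM in bigenic libraries and at 40.8, 45.0, 45.3 and 39.9 CPM in control libraries, with an interval from -0.20 to 0.16 (edgeR adjusted p = 0.876). A change the size of that of Pdk4 or Pdk2 lies outside both intervals.

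The makeup of the kinase family within a library, which does not depend on how libraries are scaled, shifted accordingly. Pdk4 made up 8.05% to 9.87% of the summed FPKM of the 4 kinases in bigenic libraries, against 4.43% to 5.32% in control libraries. The share of Pdk2 was 29.8% to 39.3% in bigenic and 24.5% to 31.5% in control libraries, which overlap. Pdk3 held 34.8% to 42.1% in bigenic and 41.3% to 47.9% in control libraries, which also overlap. For Pdk1 the share was 17.5% to 20.2% in bigenic and 20.3% to 22.9% in control libraries, apart by a narrow margin. The summed level of the 4 kinases was 53.8 ± 2.12 FPKM in bigenic and 48.9 ± 2.39 FPKM in control libraries (SD, n = 4), so Pdk4 remained the smallest of the 4 in both groups despite the rise.

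**Figure D2:**
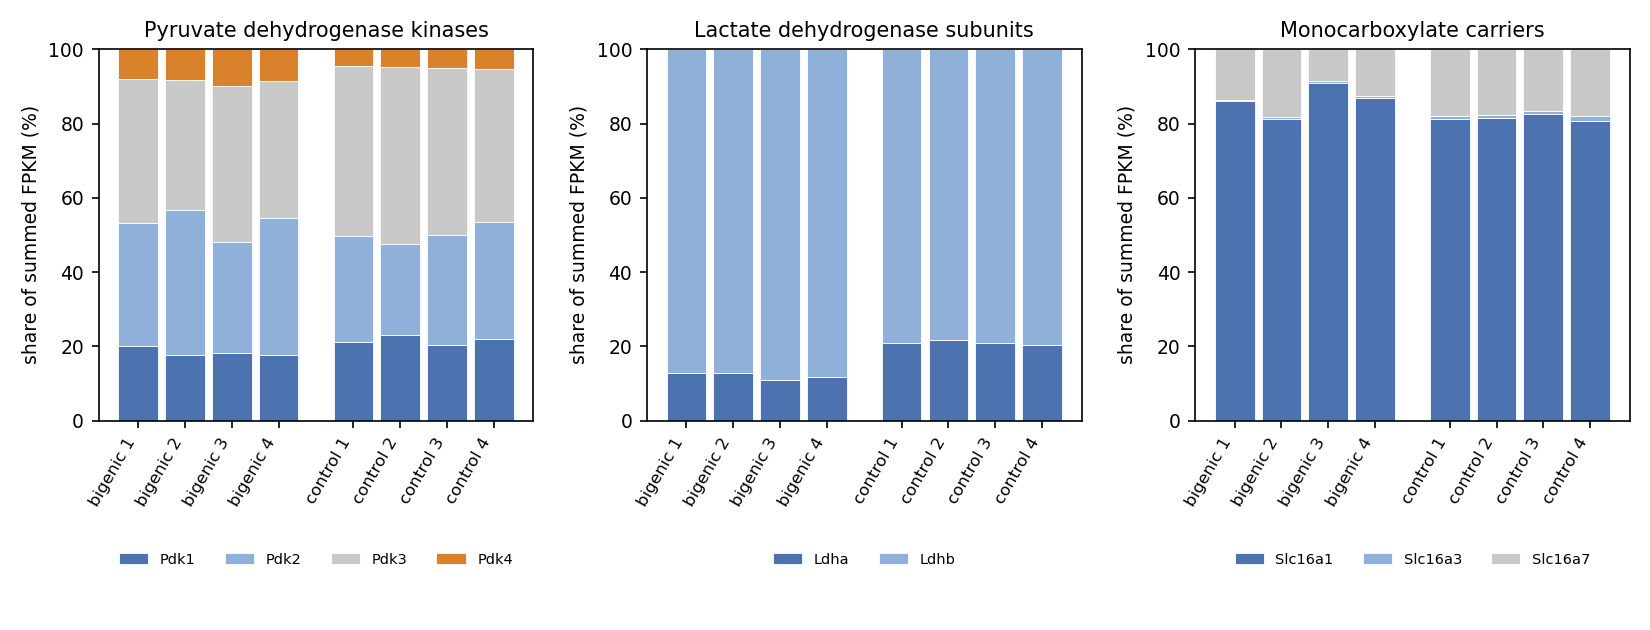
Share in percent of the summed deposited FPKM of each family (left, pyruvate dehydrogenase kinases; middle, lactate dehydrogenase subunits; right, monocarboxylate carriers) in bigenic libraries 1 to 4 and control libraries 1 to 4. The Pdk4 share is 8.05% to 9.87% in bigenic and 4.43% to 5.32% in control libraries, and the Ldha share 10.8% to 12.9% in bigenic and 20.3% to 21.7% in control libraries.

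Ldha fell in bigenic cerebellum while Ldhb did not pass the test. Ldha (chromosome 7, 46841475 to 46855627, plus strand) was measured at 107.9, 109.7, 109.9 and 107.9 CPM in bigenic libraries 1 to 4, against 171.4, 190.1, 193.0 and 179.3 CPM in control libraries 1 to 4. The bigenic values were nearly the same in all 4 mice and far below the lowest control. The log2 fold change was -0.75 ± 0.07 (SE; n = 4 per group; edgeR adjusted p = 1.33e-05). Its values ran from -0.84 to -0.69 over 19 alternatives, all past the threshold.

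Ldhb lies on the minus strand of chromosome 6 (142490249 to 142507957). Its levels were 494.6, 496.5, 604.6 and 543.5 CPM in bigenic libraries, against 435.7, 459.3, 491.6 and 469.1 CPM in control libraries. Every bigenic library was above every control, by a small margin. The log2 fold change of 0.21 ± 0.08 (SE; n = 4 per group) missed the threshold over all genes (edgeR adjusted p = 0.0564), with a 95% interval from 0.03 to 0.38. It passed without bigenic library 1 (0.24, adjusted p = 0.0484), without bigenic library 2 (0.24, adjusted p = 0.0262) and by DESeq2's Wald test (0.22, adjusted p = 0.0347). In GENCODE M21 transcripts, 12.6% of the 75-base stretches of Ldhb also occur in 1 annotated pseudogene and 2.69% of those of Ldha in 5 other genes, so levels of both carry that uncertainty.

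The balance of the subunits was compared within each library. The log2 ratio of Ldhb to Ldha counts was 2.196, 2.178, 2.46 and 2.332 in bigenic libraries 1 to 4, against 1.346, 1.273, 1.349 and 1.388 in control libraries 1 to 4. The bigenic ratio was higher in 4 of 4 libraries, by 0.95 on the log2 scale or 1.94-fold (p = 0.0286 by a two-sided exact permutation test over 70 splits, the lowest value 4 against 4 can give). Adjusted over the 2 ratios tested, p was the same. Per length, Ldhb exceeded Ldha 7.33-fold in bigenic and 3.78-fold in control tissue. Ldha held 10.8% to 12.9% of the summed FPKM of the pair in bigenic libraries, against 20.3% to 21.7% in control libraries, while the sum itself was 457 ± 33.5 FPKM in bigenic and 468 ± 21.0 FPKM in control tissue (SD, n = 4).

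Ldha is a known target of hypoxia-inducible factor, and its promoter window (chr7:46845554-46845853, plus strand, GRCm38.p6) is shown because it holds more ACGTG and GCGTG matches than the first window of any other gene of the 10 in the table. Capitals mark the same motifs as in the window of Pdk4.
Ldha: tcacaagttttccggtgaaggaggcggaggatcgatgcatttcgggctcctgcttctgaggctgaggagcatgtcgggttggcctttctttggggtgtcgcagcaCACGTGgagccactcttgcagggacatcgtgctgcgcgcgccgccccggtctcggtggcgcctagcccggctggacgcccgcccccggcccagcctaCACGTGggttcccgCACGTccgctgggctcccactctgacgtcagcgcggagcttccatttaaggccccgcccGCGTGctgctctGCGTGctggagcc
It holds 5 matches to ACGTG and 2 to GCGTG, where CACGTG reads as ACGTG on both strands and so counts as 2. Of the 12 windows that the table gives for 9 of the genes, 10 hold ACGTG or GCGTG, compared with 43.8% of all windows. Matches were thus present at genes that rose, fell and did not pass. AGAACA matched 1 time in the window of Slc16a3 and 2 times in the second window of Pdk1, and GTAAACA and AAGGTCA matched in none of the 12. Slc16a7 has no entry in the table.

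Of the monocarboxylate carriers, the 2 rarer ones fell and the main one did not pass. Slc16a1 encodes MCT1, the carrier of vessels and glia including oligodendrocytes. It was measured at 97.8, 81.1, 116.4 and 99.96 CPM in bigenic libraries 1 to 4, against 95.5, 98.2, 104.6 and 106.3 CPM in control libraries 1 to 4. The bigenic values spread on both sides of the control range, and the log2 fold change of -0.03 had a 95% interval from -0.25 to 0.18 (edgeR adjusted p = 0.804).

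Slc16a7, on the minus strand of chromosome 10 (125219270 to 125389465), encodes MCT2, the high-affinity carrier linked to neuronal lactate uptake. It was measured at 8.44, 9.90, 6.07 and 7.84 CPM in bigenic libraries 1 to 4, against 11.5, 11.6, 11.4 and 13.0 CPM in control libraries 1 to 4. All bigenic libraries lay below all controls, with bigenic library 3 the lowest. The log2 fold change was -0.56 ± 0.14 (SE; n = 4 per group; edgeR adjusted p = 0.00782), and without control libraries 2 and 3 it was -0.60 (adjusted p = 0.0495). The predicted gene Gm47862 overlaps 179 of its exonic bases on the opposite strand, and the sources do not say whether counting used strand.

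Slc16a3 encodes MCT4, a low-affinity carrier linked to lactate export from astrocytes and muscle. It had few reads, 11, 15, 11 and 14 counts in bigenic libraries 1 to 4, against 22, 26, 23 and 38 counts in control libraries 1 to 4. All bigenic counts were below all control counts. The log2 fold change was -0.98 ± 0.27 (SE; n = 4 per group; edgeR adjusted p = 0.0117), and without control libraries 2 and 3 it was -1.09 (adjusted p = 0.0533), a fit with fewer samples in which Slc16a3 was no longer called. On log2(FPKM + 1) the difference was -0.18, since the pseudocount exceeds the level. Slc16a1 held 81.2% to 90.9% of the summed FPKM of the 3 carriers in bigenic and 80.7% to 82.6% in control libraries, which overlap.

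**Figure D3:**
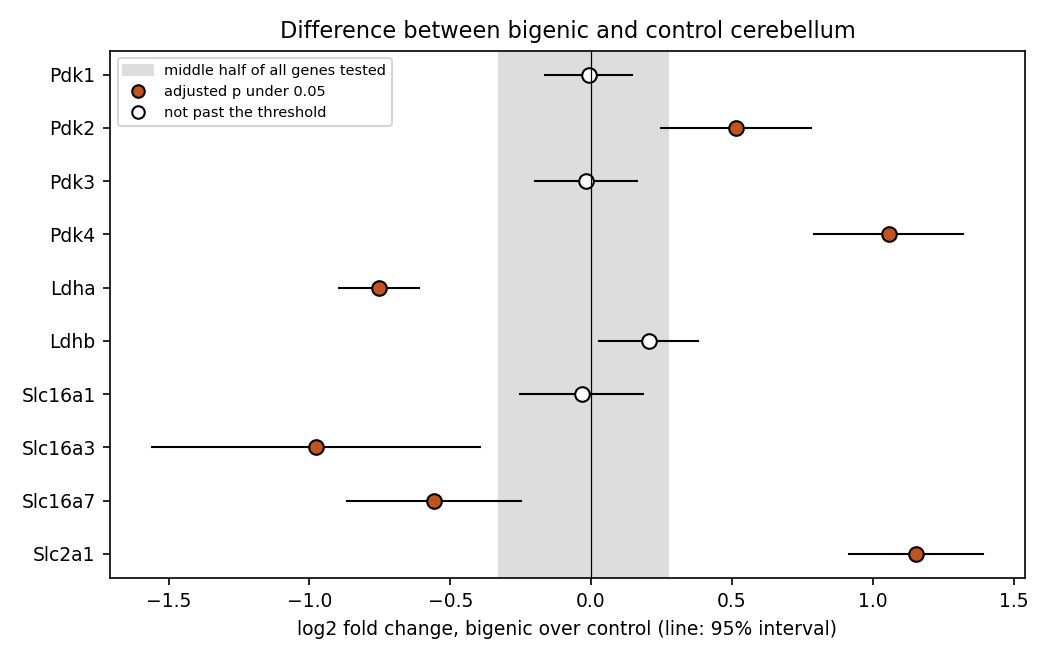
Log2 fold change of each of the 10 genes, bigenic over control, with its 95% interval from edgeR's fit (n = 4 per group); filled points passed an adjusted p under 0.05, and the grey band runs from the lower to the upper quartile of all genes tested. Slc2a1 and Pdk4 lie above 1, Slc16a3 lies near -1 with the widest interval, and the intervals of Pdk1, Pdk3 and Slc16a1 include 0.

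Slc2a1 and Pdk4 had the largest rises of the 10 genes. Slc2a1 (chromosome 4, 119108711 to 119137983, plus strand) encodes GLUT1, the glucose transporter of brain endothelium and astrocytes. It was measured at 84.1, 100.1, 88.7 and 88.7 CPM in bigenic libraries 1 to 4, against 48.0, 43.7, 34.0 and 36.8 CPM in control libraries 1 to 4. Every bigenic library exceeded every control by a wide margin, and control library 4, which held little Ttr, was among the lower controls. The log2 fold change was 1.15 ± 0.11 (SE; n = 4 per group; edgeR adjusted p = 2.51e-05), a 2.22-fold rise, and it stayed between 1.03 and 1.24 over 19 alternatives. Its interval overlapped that of Pdk4, and Pdk4 had the larger value without control library 3 (Pdk4 1.097, Slc2a1 1.075) or control library 4 (Pdk4 1.11, Slc2a1 1.106). The antisense gene Gm12868 overlaps 105 of its exonic bases.

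Its promoter window (chr4:119108495-119108794, plus strand, GRCm38.p6) is shown beside that of Pdk4 because both genes rose about 2-fold.
Slc2a1: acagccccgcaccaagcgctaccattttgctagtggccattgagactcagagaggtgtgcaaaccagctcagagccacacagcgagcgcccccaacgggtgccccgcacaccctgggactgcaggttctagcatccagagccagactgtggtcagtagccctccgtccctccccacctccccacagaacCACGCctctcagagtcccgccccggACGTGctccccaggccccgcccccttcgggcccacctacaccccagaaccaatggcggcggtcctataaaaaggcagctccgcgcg
It holds 1 match to ACGTG and 1 to GCGTG, shown in capitals, and no match to the 3 other motifs, while the Pdk4 window holds 1 GCGTG match.

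Vessel markers were called in both directions, and both red blood cell genes that could be tested fell. In the endothelial list 1 of 12 genes rose and 4 fell, with 44.3% of all genes tested called. Mfsd2a rose by 1.55 ± 0.13, while Tek was lower at -1.34 ± 0.09, Kdr at -0.99 ± 0.11, Tie1 at -0.73 ± 0.13 and Emcn at -0.69 ± 0.20 (SE). The summed level of the list was 292.2 to 332.9 CPM in bigenic libraries and 314.4 to 350.7 CPM in controls, which overlap. The list's most abundant members, the organic anion transporter gene Slco1a4 and the tight junction gene Ocln, did not pass (log2 differences of -0.07 and 0.04; edgeR adjusted p = 0.567 and adjusted p = 0.751). In the list for pericytes and smooth muscle 1 of 8 rose and 1 fell, with summed levels of 205.9 to 243.8 CPM in bigenic libraries and 217.6 to 248 CPM in controls. The fallen pericyte gene lost its call without bigenic library 1 or 4 or control library 1, 2 or 3, and 3 fell without bigenic library 3. Without bigenic library 2 or control library 1, 2 endothelial genes rose. Without control libraries 2 and 3 together, 1 endothelial gene rose and 3 fell, and 0 pericyte genes rose or fell. Of the red blood cell list, 4 globin rows are listed at 0 in every library and so give no measure of blood content. The other 3 genes of that list summed to 1.06 to 4.92 CPM in bigenic libraries and 7.67 to 9.31 CPM in controls. Alas2, an enzyme of heme synthesis, was lower at -2.27 ± 0.69 (SE; edgeR adjusted p = 0.0272) and Slc4a1, the anion exchanger of red cells, at -0.79 ± 0.21 (SE; edgeR adjusted p = 0.0109). Of this pair 1 fell without bigenic library 2, bigenic library 3 or control library 2, and 0 without control libraries 2 and 3 or with Ttr as a covariate.

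Astrocyte markers were more often higher than lower: 6 of 10 rose and 1 fell, against 21.4% and 22.9% of all genes tested. The fallen marker was Aqp4 (-0.48 ± 0.12, SE; edgeR adjusted p = 0.00927), and Slc1a3, Gfap and Sox9 did not pass. Aldh1l1, whose promoter drives Cre in the bigenic mice, was 1 of those that rose. The markers summed to 11590 to 13210 CPM in bigenic libraries and 9316 to 9728 CPM in controls, and Glul and Aldoc differed most between the group means. Averaged over all 8 libraries Aldoc and Slc1a3 are the most abundant markers of the list, with log2 fold changes of 0.33 (edgeR adjusted p = 0.00475) and 0.12 (adjusted p = 0.262). Glul, glutamine synthetase, which was named after its values were seen, averaged 2742 CPM in bigenic libraries and 1367 CPM in controls, a log2 fold change of 1.00 ± 0.07 (SE). Without control libraries 2 and 3, 3 astrocyte markers rose and 0 fell. Choroid plexus markers fell in 9 of 10, with sums of 163.5 to 232.1 CPM in bigenic libraries and 295 to 4859 CPM in controls, none at 0. That count was 5 without bigenic library 1 or without bigenic library 4, 4 with the mouse number as a block, 1 with Ttr as a covariate, and 4 (with 1 higher) without control libraries 2 and 3. Microglial markers fell in 4 of 8, with sums of 128.9 to 157.2 CPM in bigenic libraries and 170.2 to 203.9 CPM in controls. Oligodendrocyte markers rose in 3 of 8 and fell in 1, with overlapping sums of 4470 to 5986 CPM in bigenic libraries and 4115 to 4964 CPM in controls. The fallen gene lost its call without bigenic library 1, 3 or 4 or control library 2, 3 or 4, and without control libraries 2 and 3 together 0 rose and 0 fell. Neuronal markers rose in 3 of 10 and fell in 2, with overlapping sums of 13550 to 14930 CPM in bigenic libraries and 13210 to 15290 CPM in controls, and without control libraries 2 and 3, 1 rose and 0 fell. The part of these cell types in the differences of the 10 genes was not tested.

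Slc2a1 was also set against Slc2a3, which encodes GLUT3, the glucose transporter of neurons. Slc2a3 was measured at 242.5, 234, 251.4 and 268.5 CPM in bigenic libraries 1 to 4, against 221.8, 192.3, 198.6 and 175.7 CPM in control libraries 1 to 4. It rose by less than Slc2a1, with a log2 fold change of 0.34 ± 0.08 (SE; n = 4 per group; edgeR adjusted p = 0.00628), and the call was lost without control libraries 2 and 3 (0.32, adjusted p = 0.0813). The log2 ratio of Slc2a1 to Slc2a3 counts was -1.46 ± 0.16 in bigenic and -2.29 ± 0.18 in control libraries (SD, n = 4; higher in 4 of 4 bigenic libraries; p = 0.0286, again the lowest possible, by the exact permutation test). The difference was 0.82 on the log2 scale, or 1.77-fold. Per length, Slc2a1 reached 0.558 of the Slc2a3 level in bigenic and 0.316 in control tissue.

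Other glucose transporters moved both ways, 4 of 11 higher and 4 lower, with a median log2 fold change of -0.19 (all genes tested: 21.4% higher, 22.9% lower). Slc2a4, the insulin-responsive transporter GLUT4, was measured at 33.2, 17.5, 28.9 and 34.3 CPM in bigenic libraries 1 to 4, against 7.44, 6.67, 7.79 and 5.21 CPM in control libraries 1 to 4. All bigenic libraries were at more than 2 times the highest control, and the log2 fold change was 2.07 ± 0.21 (SE; n = 4 per group; edgeR adjusted p = 4e-05), larger than that of Slc2a1. The urate and hexose transporter gene Slc2a9 rose by 1.19 ± 0.19 and the myo-inositol transporter gene Slc2a13 was lower at -0.71 ± 0.09 (SE). Slc2a12 was lower at -1.40 ± 0.30 (SE), but control libraries 2 and 3, rich in choroid plexus transcripts, held its highest levels, 10.2 and 13.4 CPM. Without them its log2 fold change was -0.72 (adjusted p = 0.0394), and with the Ttr covariate -0.34 (adjusted p = 0.359). Of this transporter list, 2 genes were higher and 2 lower when control libraries 2 and 3 were dropped.

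Among other carriers of the Slc16 family and their chaperones, 5 of 11 fell and 1 rose, and the median log2 fold change was 0.06. Slc16a11 rose by 1.35 ± 0.24 (SE; edgeR adjusted p = 0.00123), with 40.8 to 82.4 CPM in bigenic libraries and 18.1 to 32.2 CPM in controls. Slc16a6 was lower at -1.09 ± 0.13 and Slc16a4 at -1.46 ± 0.24 (SE). Emb, embigin, which chaperones MCT2, was lower at -0.49 ± 0.12 (SE; edgeR adjusted p = 0.00772), in the same direction as its partner Slc16a7, but the call ended when control libraries 2 and 3 were dropped (adjusted p = 0.122) and when Ttr was a covariate (adjusted p = 0.18). Bsg, basigin, the chaperone of MCT1 and MCT4, did not pass (log2 difference 0.10; edgeR adjusted p = 0.31), and it is named because Slc16a1 and Slc16a3 depend on it. Without control library 2, 3 genes of this list fell, without bigenic library 2, 3 rose, and without control libraries 2 and 3 together 2 fell.

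Genes of the enzyme complex that the kinases act on changed by small amounts. Of 10 genes for its subunits, its phosphatases and the mitochondrial pyruvate carriers, 3 rose and 1 fell, with a median of 0.16. Pdhb, a subunit of the decarboxylase component, was lower at -0.25 ± 0.07 (SE; edgeR adjusted p = 0.0139), whereas Pdpr, the regulatory subunit of the phosphatase, rose by 0.26 ± 0.07, Dlat, the acetyltransferase subunit, by 0.23 ± 0.07 and the pyruvate carrier gene Mpc1 by 0.44 ± 0.15 (SE). None of the 4 passed without control libraries 2 and 3 or with the Ttr covariate. With library size alone, 0 genes of this list were higher, and 1 or fewer were higher without bigenic library 4 or without control library 2, 3 or 4. Pdp1 and Pdp2, the phosphatases that reverse the kinases' action, did not pass (log2 differences of -0.01 and 0.17).

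Glycolytic enzymes were mixed, with 3 of 20 higher, 5 lower and a median of -0.01. Pfkp, a subunit of phosphofructokinase, was lower at -0.41 ± 0.07 (SE; edgeR adjusted p = 0.00105). The aldolase gene Aldoc, also in the astrocyte list, and the hexokinase gene Hk1 rose by 0.33 ± 0.08 and 0.295 ± 0.07 (SE). With the Ttr covariate Pfkp and Aldoc no longer passed (adjusted p = 0.0553 for each). Dropping control libraries 2 and 3 ended the calls of Aldoc (adjusted p = 0.0829) and Hk1 (adjusted p = 0.0539). Gapdh rose by 0.68 ± 0.12 (SE), but 22.6% of its 75-base stretches also occur in 126 other annotated genes and it was counted at only 9.03 CPM in bigenic libraries and 5.65 CPM in controls, so its value is uncertain. Eno1 was counted at only 1.76 CPM in bigenic libraries and 1.97 CPM in controls. Shared stretches were counted for Gapdh alone in this list, so the counts and the median may include other enzymes that are poorly counted. The number of lower enzymes was 3 without bigenic library 3 or control library 1 and 2 without bigenic library 4, control library 2, or control libraries 2 and 3.

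**Figure D4:**
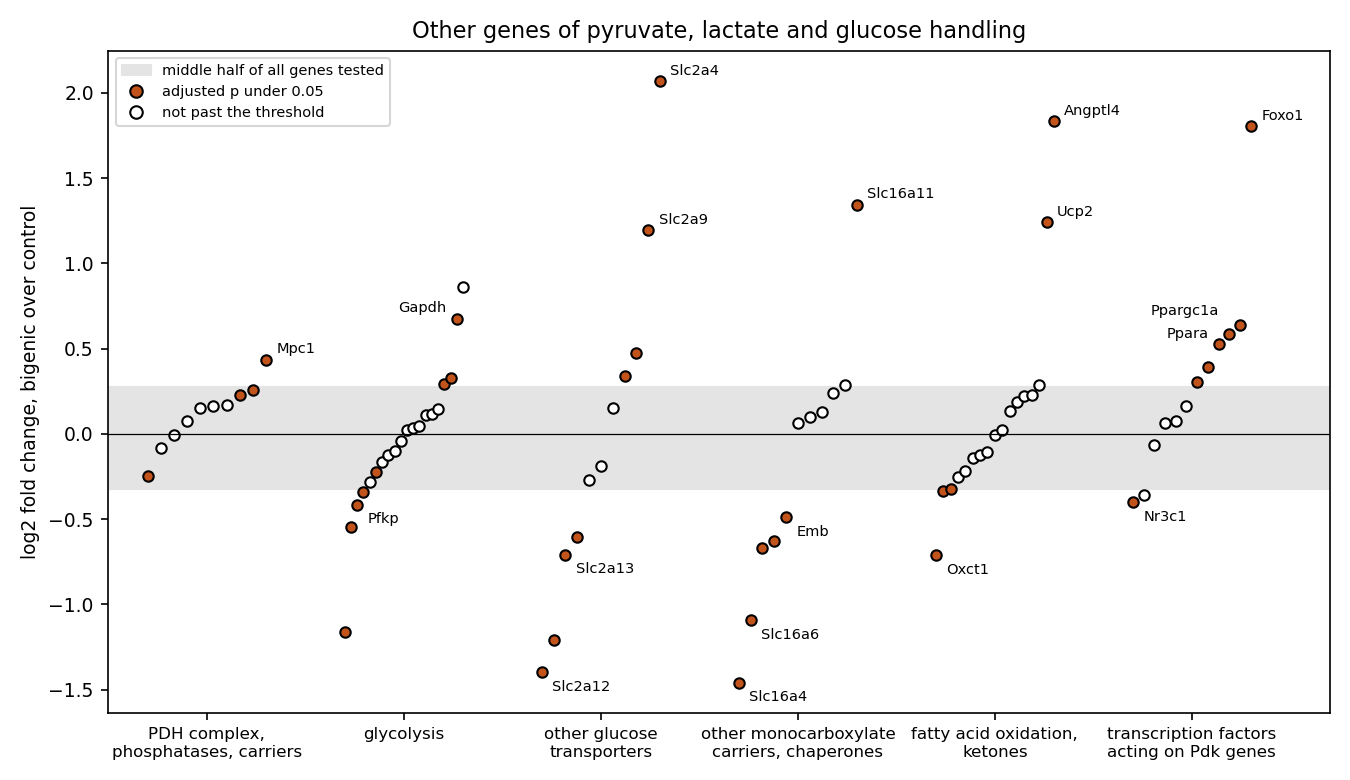
Log2 fold change, bigenic over control, of each tested gene in 6 lists of pathway genes (x axis, genes sorted by value within a list); filled points passed an adjusted p under 0.05, the grey band runs between the quartiles of all genes tested, and names are given to genes beyond 0.4 among the 4 of smallest p in a list. Slc2a4, Angptl4 and Foxo1 are the highest named points, and the pyruvate dehydrogenase and glycolysis lists lie mostly within the band.

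Transcription factors that act on Pdk genes in other tissues were higher in 6 of 12 and lower in 1, with a median of 0.23 (all genes tested: 21.4% higher, 22.9% lower). Foxo1, a forkhead factor that activates Pdk4 in fasting, was measured at 16.7, 25.4, 27.5 and 21.6 CPM in bigenic libraries 1 to 4, against 6.61, 6.38, 5.63 and 7.47 CPM in control libraries 1 to 4. The groups were far apart, with a log2 fold change of 1.80 ± 0.16 (SE; n = 4 per group; edgeR adjusted p = 1.31e-05). The coactivator Ppargc1a rose by 0.59 ± 0.10 and the fatty acid receptor Ppara by 0.53 ± 0.11 (SE). Nr3c1, the glucocorticoid receptor, was lower at -0.40 ± 0.09 (SE; edgeR adjusted p = 0.00314), a call lost without control libraries 2 and 3 (adjusted p = 0.074) and with the Ttr covariate (adjusted p = 0.16). In each of those fits 3 factors were higher and 0 lower.

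Genes of fatty acid oxidation and ketone use, a fuel supply that Pdk4 is known to favour in muscle, were mostly not called: 2 of 17 rose and 3 fell, with a median of -0.01. Angptl4, a secreted lipase inhibitor that shares fasting regulators with Pdk4, rose by 1.83 ± 0.17 (SE; edgeR adjusted p = 2.21e-05), and the mitochondrial carrier gene Ucp2 rose by 1.24 ± 0.10. Oxct1, the enzyme that activates ketone bodies for use as fuel, was lower at -0.71 ± 0.08, and Hadha, a subunit of the mitochondrial trifunctional protein, at -0.34 ± 0.07 (SE). The call of Hadha was lost without control libraries 2 and 3 (adjusted p = 0.0734) and with the Ttr covariate (adjusted p = 0.136), and in each of those fits 1 gene of the list was lower. With library size alone 5 were lower.

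The genes whose values over the 8 libraries were most like those of Pdk4 and Slc2a1 were found by the root-mean-square difference of log2 CPM after centring each gene on its mean. For Pdk4 they were Xpa, F3, Lgals3, Lsm7 and Traf6, with differences of 0.0959 to 0.123 against a median of 0.583 over the genes compared. For Slc2a1 they were Cnnm3, Nuak2, Chka, Spsb1 and Mnt, with differences of 0.0851 to 0.107 against a median of 0.633. Each measure runs over the same 8 libraries that show the group difference. These genes were picked for the smallest differences, so lying below the median was given in advance.

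**Figure D5:**
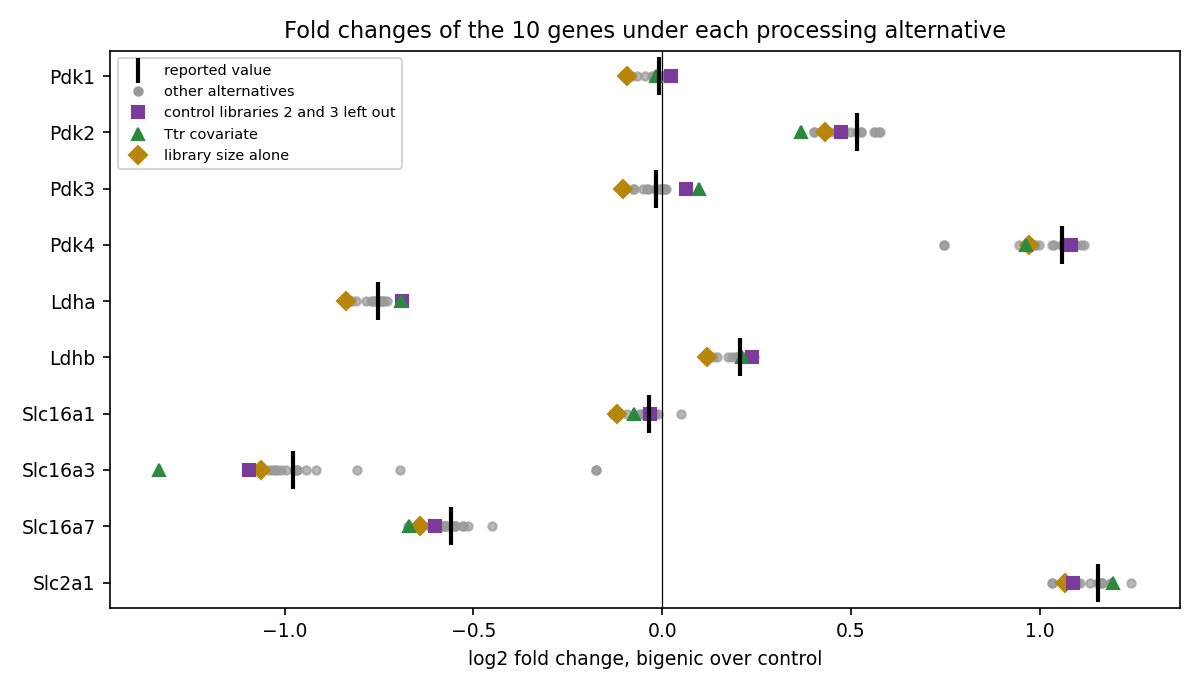
Log2 fold change, bigenic over control, of each of the 10 genes as reported (black bars) and under 19 alternatives (grey points, with 3 settings marked by shape). Pdk4, Ldha, Slc16a7 and Slc2a1 stay on their side of 0 and past the threshold in every alternative, and the lowest value of Pdk4, 0.75, is the one on log2(FPKM + 1).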

How the data were processed

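The authors deposited raw read counts per gene and FPKM for whole cerebellum of 4 bigenic and 4 control mice. Per the submitters' processing notes STAR, HTSeq and mm10 were used. Versions and strand setting are not given in the sources used here. The deposited FPKM equal the counts over a fixed gene length and the column total (checked on 13458 genes, lengths agreeing within 0.1 percent), and serve for levels between genes. Per the labels each library is a separate mouse. The labels name different extraction and library kits in the series text and the sample protocols.

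The tests ran edgeR 4.0.16 under R 4.3.3: filterByExpr (15186 of 24060 rows kept), TMM, robust quasi-likelihood F test, Benjamini-Hochberg adjustment over all genes tested. SE is the log2 fold change over the root of F. Alternatives used DESeq2 1.42.0, limma 3.58.1 with pseudocounts of 1 and 0.1, other scalings, no filter, left-out libraries, a Ttr covariate and a replicate block. The fit was tested on simulated data. The 10 genes and all lists were chosen with earlier results of these data known. Named list genes are the up to 4 of smallest p in each pathway list and the 2 most abundant markers. Bsg, Pdp1, Pdp2, Glul and the other endothelial and astrocyte markers named were added after their values were seen. Coordinates and overlaps are from GENCODE M21 (GRCm38), promoters from RefSeq.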

Additional observations from a re-analysis of the deposited data

Results flagged for a closer look

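In each group of 4 libraries, the distance of the most extreme library from its nearest neighbour was compared with the range of the group for the 10 genes and the 2 ratios. Of 24 such groups 2 had a library that stood apart, and chance gives about 1 in 20. Pdk1 was at 54.77 CPM in bigenic library 1, above the other bigenic libraries at 52.1 to 52.34 CPM, a gap that is small in size because those 3 nearly coincide. Slc16a7 was at 13.0 CPM in control library 4, above the other controls at 11.45 to 11.61 CPM. Without that library the log2 fold change of Slc16a7 was -0.51 (edgeR adjusted p = 0.0238).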

How the results depend on the processing

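Pdk4, Ldha, Slc16a7 and Slc2a1 kept direction and call in all 19 alternatives. The number of the 10 genes called ran from 4 to 7, from 2 to 4 higher and from 2 to 3 lower, and with 1 library left out it was 6 or 7. Pdk1, never called, changed sign with DESeq2 size factors (0.0029), DESeq2 (0.0028), without control libraries 2 and 3 (0.022), and without control library 2 or 4, where leaving out 1 library gave -0.04501 to 0.01524. Pdk3, never called, did so with the Ttr covariate (0.097), without control libraries 2 and 3 (0.0627), and when bigenic 1, bigenic 2, control 2 or control 3 alone was dropped (-0.07528 to 0.009192 with 1 library left out). Slc16a1 did so without bigenic library 2 (-0.129 to 0.0495 with 1 library left out). The cause was not tested. Over all genes 6734 were called (3249 higher, 3485 lower). Without control libraries 2 and 3 the counts were 3394, 1619 and 1775, and with the Ttr covariate 2935, 1270 and 1665. Leaving out 1 library gave 5281 to 7411 calls, 2544 to 3588 higher and 2737 to 3823 lower. Higher genes were 48.2% of calls with TMM and 35.7% with library size alone, and it was 35.2% to 39.1% with upper-quartile factors and on FPKM. The median of all genes moved by less than 0.1 in each. The Ldhb to Ldha difference was 0.90 to 0.99 and the Slc2a1 to Slc2a3 difference 0.74 to 0.87 with 1 library left out, all at an exact permutation p of 0.0286. Without control libraries 2 and 3, a setting chosen after seeing the data, they were 0.92 and 0.77 at an exact permutation p of 0.0667, the smallest that 4 against 2 libraries allow. With the mouse number as a replicate block 7443 genes passed and 7 of the 10, Ldhb among them (0.20, adjusted p = 0.022). Same-numbered libraries correlated between 0.0239 and 0.329 in their deviations from the group means. Bigenic libraries 1, 3 and 4 matched the control of their own number best, and bigenic library 2 matched control library 1 best. The labels state no pairing, so the numbers were not taken to pair the mice, and whether they do cannot be told from the labels. Depth limits Slc16a3, with 38 or fewer counts in each library.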
